A study of Homo sapiens with 10 samples.

Results

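The cytosolic ribosomal protein genes encode the protein parts of the small and the large subunit of the ribosome that works in the cytosol. They were taken as the gene symbols that begin with RPL or RPS followed by a number, with an optional A, X or L, together with RPLP0, RPLP1, RPLP2 and RPSA, and numbered pseudogenes were left out. The rule found 84 members among the 58037 gene identifiers of the expression tables, 32 of the small subunit and 52 of the large subunit. A549 is a line from a human lung adenocarcinoma, and A549/DDP is its derivative that resists cisplatin (DDP), a platinum drug that cross-links DNA. Both lines were grown in the same serum medium and used at a low passage, and the labels give no drug in the medium of any library. Each line had 2 input libraries of RNA that was not pulled down and 2 m6A-seq libraries, in which fragments carrying N6-methyladenosine (m6A) were pulled down with an antibody. A second pair of A549 input libraries carries the same cell line, passage and antibody labels as the first pair. The labels of the A549/DDP inputs give the line name as A549 and the cell type as a resistant line, and A549/DDP stands for a single derived line. The series asks which m6A-modified transcripts the reader protein YTHDF1 targets. Here the comparisons were between the lines and between the A549 input pairs, and the YTHDF1 RIP-seq was not analysed here.

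Ribosomal proteins are made in near-equal numbers, because each ribosome holds nearly every one of them in a single copy, and their messages are among the most abundant of a growing cell. Most of these messages start with a C followed by a stretch of pyrimidines, the 5′ terminal oligopyrimidine (TOP) tract, through which the kinase mTOR and the RNA-binding protein LARP1 set how actively they are translated. A few members have a paralogue with an L in its name, such as RPL22L1 or RPS27L, which can take the place of the parent protein or acts apart from it.

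The promoter table of RefSeq (build GRCh38.p14) held an entry for 67 of the 84 members. A C at the annotated start followed by 4 bases that are each C or T, read on the strand of the gene, stood in 43 of these 67 members (64.2%). The same letters stood in 4.04% of all 27305 promoters of the table and in 5.25% of the promoters of genes tested between the lines. Within 10 bases of the start the letters stood in 56 members (83.6%) and in 33.3% of all promoters. The start base was C in 47 members, A in 11, G in 6 and T in 3. Among the 5 L-suffix members with an entry (RPL7L1, RPL10L, RPL22L1, RPL26L1 and RPS27L) only RPL22L1 held the tract at its start. The windows below are shown because they set the members with the highest fitted change between the lines, and the members that took the top ranks in the second A549 pair, beside the paralogues and their parents. Each has 10 bases before the start and 20 bases from the start on, 5′ to 3′ on the strand of the gene, and the capitals mark the unbroken run of C and T that holds the start base.
RPLP0 (chr12:120201092-120201121, minus strand): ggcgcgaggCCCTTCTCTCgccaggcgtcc
RPL41 (chr12:56116623-56116652, plus strand): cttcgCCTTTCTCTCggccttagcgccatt
RPL10 (chrX:154398055-154398084, plus strand): ccactctcagaaatatacgtctgtcacagt
RPS28 (chr19:8321486-8321515, plus strand): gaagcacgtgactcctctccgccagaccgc
RPL22 (chr1:6199576-6199605, minus strand): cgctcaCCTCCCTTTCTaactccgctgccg
RPL22L1 (chr3:170870176-170870205, minus strand): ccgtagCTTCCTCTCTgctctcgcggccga
RPL26 (chr17:8383174-8383203, minus strand): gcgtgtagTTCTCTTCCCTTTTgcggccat
RPL26L1 (chr5:172958719-172958748, plus strand): tccaggggtcggcgaacgaaacgcggagct
RPS27 (chr1:153990752-153990781, plus strand): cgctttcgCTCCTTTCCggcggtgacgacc
RPS27L (chr15:63157458-63157487, minus strand): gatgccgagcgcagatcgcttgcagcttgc
RPL7L1 (chr6:42879606-42879635, plus strand): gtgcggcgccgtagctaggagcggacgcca
RPS21 (chr20:62387093-62387122, plus strand): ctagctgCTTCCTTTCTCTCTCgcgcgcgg
These windows describe annotated starts, and no read of the study was used to place the starts.

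The expression tables gave expected counts and TPM (a level scaled for transcript length and library size). Total expected counts ranged from 29225501 to 35286514 in the first 4 input libraries and were 855034 and 982036 in the second A549 pair. Mitochondrial genes held 75.2% and 73.9% of the counts of the second pair and at most 0.0547% in the other 4 libraries, so the second pair stood apart and entered the comparison of the lines only as an alternative. Among the epithelial markers, KRT8 and KRT18 were high in every library of the first 4 (from 1591 to 9891 TPM), while KRT19 had 33.3 and 64.0 TPM in A549 and 9.24 and 0 TPM in A549/DDP, CDH1 had 28.9 and 40.4 TPM against 226 and 114 TPM, and EPCAM had 2.45 to 6.95 TPM. The lung surfactant gene SFTPC was at 0, SFTPB reached at most 0.45 TPM and NAPSA 3.94 TPM. The leukocyte and endothelial markers reached at most 0.39 TPM, and of the fibroblast markers COL1A1 had 1.85 to 14.7 TPM and COL1A2 and DCN at most 2.69 TPM, each highest in A549/DDP replicate 1. The part of these markers in the results was not tested. In bulk libraries, fewer cells of a kind and less RNA per cell cannot be told apart. The labels do not say that replicates came from separate cultures, so each p-value measures only the spread between these libraries.

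Ribosomal protein messages were abundant in both lines and held a larger share of the TPM in A549/DDP. The members together held 11.3% and 9.94% of all TPM in the A549 inputs and 12.6% and 12.9% in the A549/DDP inputs, a ratio of the means of 1.20. The A549/DDP libraries both lay above both A549 libraries, but the A549 replicates differed by more than the A549/DDP replicates, and with 2 libraries against 2 the smallest p an exact permutation test can give is 0.333. For the small subunit the ratio of summed TPM was 1.27, and for the large subunit it was 1.16. Of the 100 genes with the highest mean TPM over the 4 inputs, 41 were members, and 50 members had a mean above 1000 TPM.

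The highest level belonged to RPL4, a large-subunit protein at the peptide exit tunnel, with 5953 and 4876 TPM in A549 and 5848 and 5765 TPM in A549/DDP. RPL13A, a large-subunit protein that also acts in translational silencing outside the ribosome, had 4852, 4007, 4941 and 4607 TPM in the same order of libraries. The ranges of the lines overlapped for both genes. RPL8, a core protein of the large subunit, had 4235 and 3089 TPM in A549 and 4787 and 4067 TPM in A549/DDP, also overlapping. RPS2, a small-subunit protein at the mRNA entry site, had 3101 and 2951 TPM in A549 and 5032 and 4876 TPM in A549/DDP. RPS2 was apart in the lines, with a log2 fold change of 0.61 and an adjusted p of 0.0520 by the edgeR quasi-likelihood test with Benjamini-Hochberg adjustment, and 5.48% to 6.86% as many counts as RPS2 itself lay on its numbered pseudogenes. RPS6, the small-subunit protein that S6 kinase phosphorylates downstream of mTOR, had 3190 and 2596 TPM in A549 and 3305 and 3538 TPM in A549/DDP.

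The 5 lowest members that passed the filter on low counts were the 5 expressed L-suffix paralogues. Their mean levels over the 4 inputs were 21.4 TPM for RPL39L, 62.8 TPM for RPL26L1, 63.8 TPM for RPL7L1, 70.9 TPM for RPL22L1 and 189 TPM for RPS27L. RPL3L, the muscle form of RPL3, had 1 count in A549/DDP replicate 1 and 0 in the other libraries, and RPL10L, the testis form of RPL10, was at 0 in all 6. These 2 members did not pass the filter and 82 were tested. The order of the members by TPM was close to the same in each library of the first 4. Across the 82 members, Spearman's rho was 0.979 between the A549 replicates, 0.984 between the A549/DDP replicates and from 0.936 to 0.962 between libraries of different lines. These values are across genes, which are not independent replicates.

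**Figure D1:**
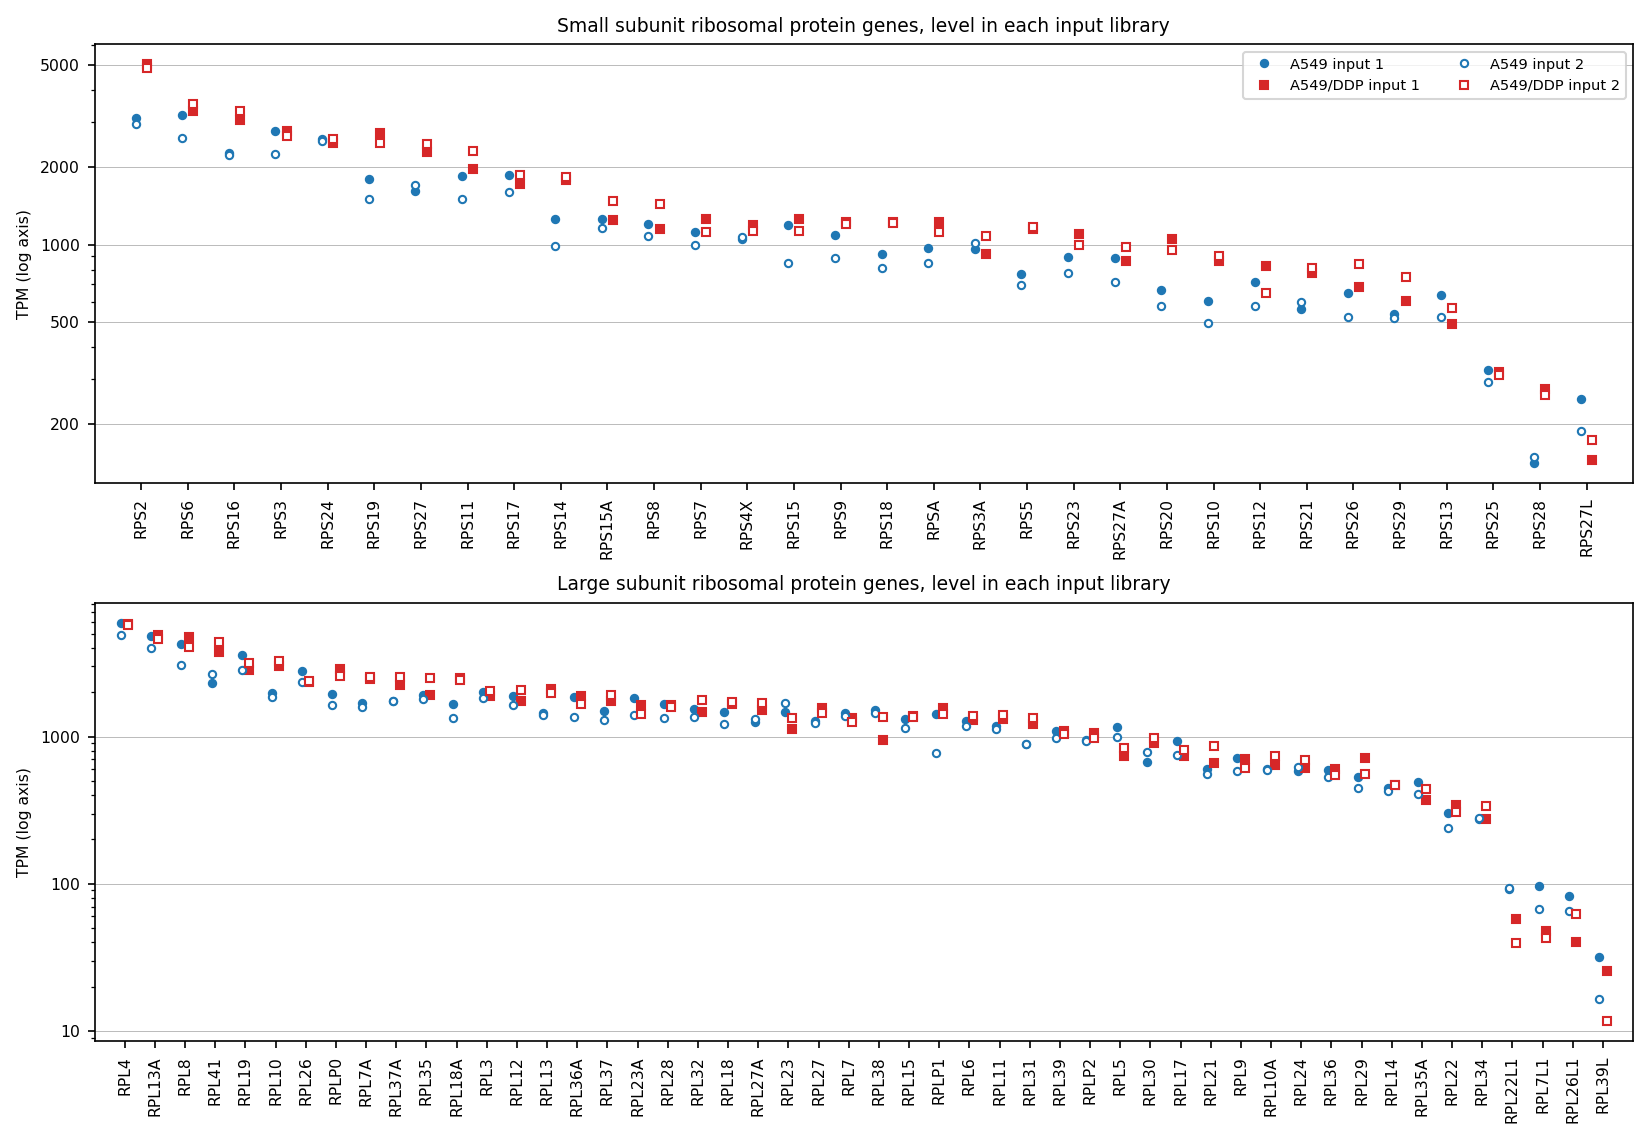
TPM on a log axis of each tested member in the 2 A549 inputs (circles) and the 2 A549/DDP inputs (squares), with filled symbols for replicate 1 and open symbols for replicate 2, ordered by mean level within each subunit. The red squares of RPS2, RPL10, RPLP0, RPL41 and RPS28 lie above the blue circles, and the 4 L-suffix paralogues of the large subunit lie below 100 TPM in every library.

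The comparison of A549/DDP with A549 inputs showed small shifts, upward for most members. By the edgeR quasi-likelihood test on all genes (Benjamini-Hochberg adjusted p under 0.05) 3 of the 82 members were called (3.66%), all 3 higher in A549/DDP and all in the large subunit, beside 14.9% of the 16406 genes tested. Of all genes tested, 6.85% were called higher and 8.00% lower, and no member was called lower. An unadjusted p under 0.05 was reached by 19 members, beside 32.7% of all genes. DESeq2 called 16 members higher and 2 lower, beside 2011 higher and 2267 lower of all 16406 genes tested. The median log2 fold change was 0.20 over the members and -0.00 over all genes tested, 0.31 over the small-subunit members and 0.12 over the large-subunit members. The fitted change was above 0 in 64 members (78.0%) and in 49.9% of all genes. The TPM of both A549/DDP libraries lay above both A549 libraries in 42 members (51.2%, beside 28.2% of all genes) and below them in 8 members (9.76%, beside 30.3%). Of the 82 members, 65 stayed within 0.5 of no change on the log2 scale. The standard deviation of their log2 fold changes was 0.35, beside 2.23 over all genes and 1.12 over the genes with at least 10 counts in every library. The share of all genes within 0.5 was not taken, and the spread was not compared with that of genes of like level. The A549 replicates were themselves apart: 69 of 82 members had a higher TPM in A549 replicate 1 than in replicate 2, and the median difference in log2 scaled counts was 0.37, while it was -0.02 between the A549/DDP replicates. Without A549 replicate 1 the median log2 fold change was 0.37 over the members and 0.06 over all genes. Without A549 replicate 2 these medians were 0.04 and 0.06, so the members no longer lay above all genes. In that fit 45 members were above 0, beside 51.9% of all genes. Without A549/DDP replicate 1 the medians were 0.22 and -0.20, and without A549/DDP replicate 2 they were 0.18 and -0.11.

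RPLP0 (ENSG00000089157.15) is the scaffold of the acidic stalk, to which the dimers of RPLP1 and RPLP2 bind and through which the ribosome recruits translation factors. It had 1956 and 1627 TPM in A549 and 2871 and 2593 TPM in A549/DDP, so both A549/DDP libraries were higher. The edgeR fit gave a log2 fold change of 0.73 ± 0.17 (SE, 2 libraries per line) with an adjusted p of 0.0402. RPLP1, its partner, had 1434 and 777 TPM in A549 and 1563 and 1432 TPM in A549/DDP. The A549 replicates of RPLP1 lay far apart and the lower A549/DDP value fell just under the higher A549 value, and the log2 fold change of 0.56 had an adjusted p of 0.112. RPLP2 had 953, 929, 1052 and 983 TPM in the same order of libraries, with a log2 fold change of 0.20 ± 0.19 and an adjusted p of 0.558. Of the stalk proteins only RPLP0 passed the test, and the differences between the stalk genes were not tested.

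RPL10 (ENSG00000147403.16) encodes a late-joining protein of the large subunit that lies near the catalytic centre. It had 1976 and 1867 TPM in A549 and 3029 and 3261 TPM in A549/DDP. The lines did not overlap, and the log2 fold change was 0.68 with an adjusted p of 0.0434 by edgeR with Benjamini-Hochberg adjustment. RPL41 (ENSG00000229117.8) encodes the smallest protein of the ribosome, a short basic peptide at the bridge between the subunits. It had 2329 and 2649 TPM in A549 and 3756 and 4394 TPM in A549/DDP. Both A549/DDP values were higher, and the log2 fold change was 0.67 with an adjusted p of 0.0377. RPLP0, RPL10 and RPL41 each lost the call when either A549/DDP replicate was left out (lowest adjusted p 0.121, highest 0.261), while the log2 fold changes ranged from 0.53 to 0.89 over all 4 replicates left out in turn.

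RPS28, a small-subunit protein at the mRNA exit, had the highest fitted change of all members and missed the threshold. It had 141 and 149 TPM in A549 and 275 and 259 TPM in A549/DDP, with a log2 fold change of 0.85 ± 0.22 and an adjusted p of 0.0520 by edgeR. RPS20, a protein of the head of the small subunit, had 664 and 575 TPM in A549 and 1053 and 955 TPM in A549/DDP. Its log2 fold change was 0.67 with an adjusted p of 0.0766. Both genes had A549/DDP values above both A549 values, and both passed the threshold under DESeq2 (adjusted p 0.0124 and 0.00743). RPSA, the laminin receptor that is also a small-subunit protein, had 967 and 851 TPM in A549 and 1230 and 1117 TPM in A549/DDP, with a log2 fold change of 0.36 and an adjusted p of 0.217.

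**Figure D2:**
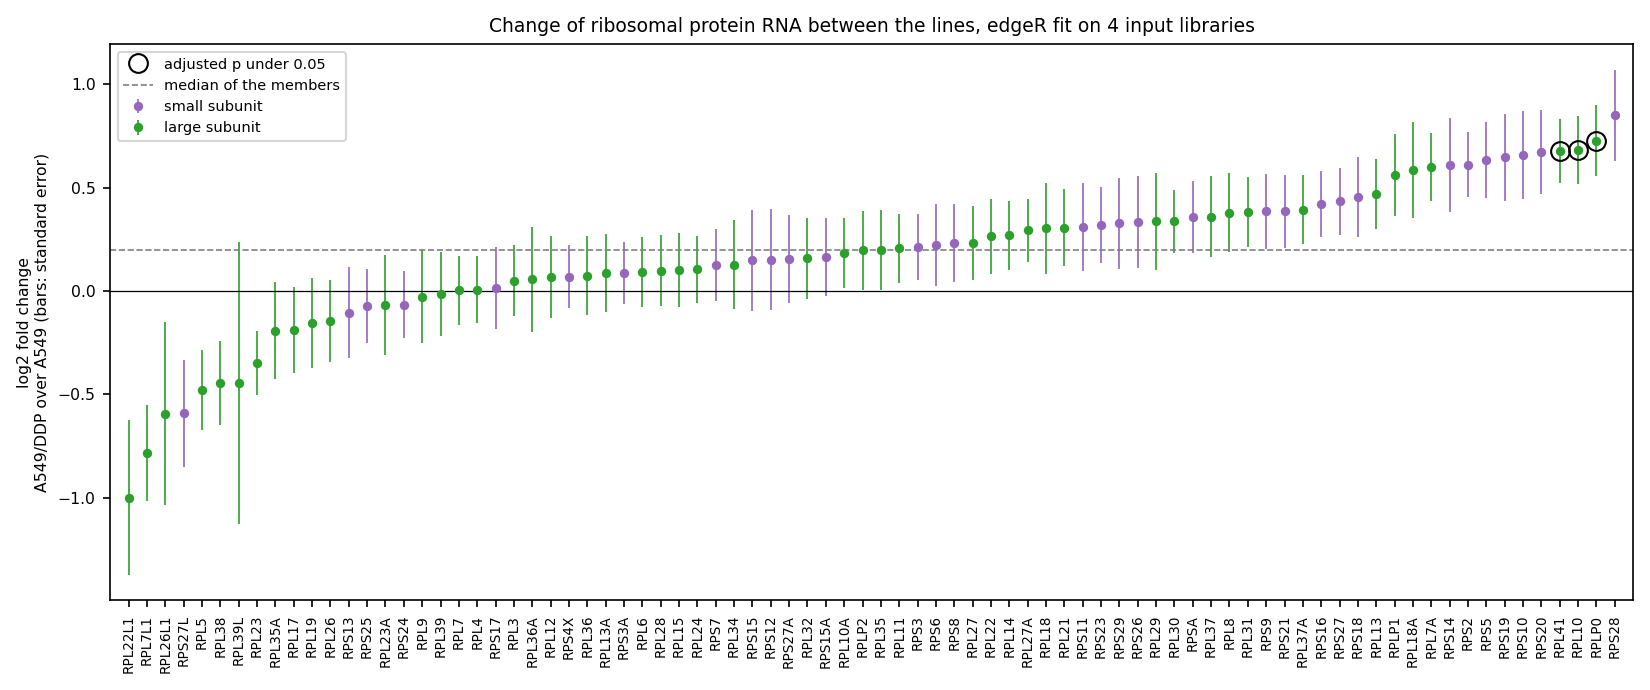
Fitted log2 fold change of A549/DDP over A549 for the 82 tested members in ascending order, with bars of 1 standard error, small-subunit members in purple, large-subunit members in green and the members with an adjusted p under 0.05 circled. Most points lie above 0 near the median of 0.20 (dashed line), the 3 circled members lie near 0.7, and RPL22L1, RPL7L1, RPL26L1 and RPS27L are the lowest.

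The 4 lowest fitted changes of the members belonged to L-suffix paralogues. By edgeR none of the paralogues passed the test between the lines, and RPL7L1 passed it by DESeq2 (adjusted p 0.00921), under other count filters, in the fit blocked on replicate number and without A549 replicate 2. The fitted log2 change was below 0 in all 5 tested paralogues (median -0.59, from -1.0 to -0.44), while the median of their 5 parents was 0.00. The summed TPM of the paralogues was 554 and 432 in A549 and 316 and 331 in A549/DDP, a ratio of the means of 0.655, and the ratio for the summed parents was 1.07. The paralogues are the lowest members by level, and their precision was less than that of their parents.

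RPL22L1, which is known to rise when RPL22 is lost, had 92.2 and 93.9 TPM in A549 and 57.5 and 39.9 TPM in A549/DDP. RPL22, an RNA-binding protein on the surface of the large subunit, had 302 and 238 TPM in A549 and 344 and 306 TPM in A549/DDP. RPL22L1 was thus at 30.5% and 39.4% of the TPM of RPL22 in A549 and at 16.7% and 13.0% in A549/DDP, with no overlap. The log2 fold change of RPL22L1 was -1.0 ± 0.37 with an adjusted p of 0.126, and that of RPL22 was 0.26 with an adjusted p of 0.384, both by edgeR with Benjamini-Hochberg adjustment. Counts on the numbered pseudogenes of RPL22 came to 37.9% and 37.0% of the RPL22 counts in A549 and to 11.9% and 19.6% in A549/DDP, and the log2 fold change of RPL22 was 0.02 when they were added.

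RPL7L1, a nucleolar paralogue that works in ribosome assembly, had 96.5 and 67.8 TPM in A549 and 48.1 and 42.9 TPM in A549/DDP. Its log2 fold change was -0.78 with an adjusted p of 0.0728, and its parent RPL7 had 1458, 1388, 1343 and 1248 TPM in the same order and a log2 fold change of 0.00. RPS27L, which differs from RPS27 by few residues, had 250 and 189 TPM in A549 and 145 and 174 TPM in A549/DDP, against 1612 and 1700 TPM and 2291 and 2466 TPM for RPS27. The RPS27L level was 15.5% and 11.1% of that of RPS27 in A549 and 6.32% and 7.06% in A549/DDP, with no overlap, and the log2 fold changes were -0.59 (adjusted p 0.175) and 0.43 (adjusted p 0.123). RPL26L1 had 83.1 and 65.5 TPM in A549 and 39.9 and 62.6 TPM in A549/DDP, with a log2 fold change of -0.59 and an adjusted p of 0.426. RPL39L, the form of RPL39 that is strong in testis and in some cancers, had 32.0 and 16.5 TPM in A549 and 25.5 and 11.6 TPM in A549/DDP. The replicates of RPL39L lay further apart than the lines did, and its parent RPL39 was at 973 to 1094 TPM in all 4 libraries. The log2 fold change of RPL39L was -0.44 with an adjusted p of 0.731.

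RPL5 was the lowest full-size member outside the paralogues. It had 1160 and 993 TPM in A549 and 737 and 837 TPM in A549/DDP, with both A549/DDP values lower. Its log2 fold change was -0.48 with an adjusted p of 0.151 by edgeR, and DESeq2 gave an adjusted p of 0.0496. RPL3, which folds into the catalytic core of the large subunit, had 2020 and 1820 TPM in A549 and 1887 and 2047 TPM in A549/DDP, with a log2 fold change of 0.05. The 43 members with a tract at the RefSeq start had a median log2 fold change of 0.26, and the 23 tested members with an entry and no tract there had a median of 0.13. Within 10 bases of the start the letters stood in 56 of the 67 members, so the split rests on the exact annotated start. The members without a tract there held RPL7L1, RPL26L1 and RPS27L, and those with it held RPL22L1. A link between tract and change was not tested. Counts on numbered pseudogenes came to at most 1.30% of the counts of the members in any library, but RPL23A stood at 17.6% to 31.0% in the first 4 libraries, and readthrough genes are annotated over RPL17, RPL36A and RPS10, so the values of these genes are less certain.

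The ribosome biogenesis genes that edgeR called between the lines were lower in A549/DDP. Of 40 ribosome biogenesis genes tested, 8 were called lower in A549/DDP and none higher by edgeR, beside 8.00% and 6.85% of all genes. DESeq2 called 15 lower and 2 higher, beside 2267 and 2011 of all 16406 genes. The median log2 fold change of the list by edgeR was -0.45. The lowest were SBDS, which releases the factor EIF6 from the large subunit, with 384 and 228 TPM in A549 and 87.1 and 91.3 TPM in A549/DDP, and NOP58, a core protein of the box C/D small nucleolar particles, with 546 and 378 TPM against 163 and 116 TPM. The adjusted p was 0.0198 for SBDS and 0.00889 for NOP58. The highest were POLR1C, a subunit shared by RNA polymerases I and III, and NOP16, a nucleolar assembly factor, with log2 fold changes of 0.79 and 0.77 and adjusted p of 0.152 and 0.0587. With 1 replicate left out, the median of the list ranged from -0.55 to -0.32, and that of all genes from -0.20 to 0.06. The value of -0.32 was without A549/DDP replicate 1, where the median of all genes was -0.20.

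Among 13 host genes of small nucleolar RNAs, whose spliced RNAs carry TOP tracts in several cases, edgeR called 3 lower and none higher. Of all genes it called 8.00% lower and 6.85% higher. DESeq2 called 5 hosts lower and none higher, beside 2267 lower and 2011 higher of all 16406 genes. The median log2 fold change of the hosts by edgeR was -0.75. SNHG1 had 620 and 533 TPM in A549 and 167 and 149 TPM in A549/DDP, a log2 fold change of -1.95 with an adjusted p of 0.00540. GAS5, SNHG8 and SNHG1 were the hosts that passed the test, and 12 of the 13 hosts had both A549/DDP TPM values below both A549 values, beside 30.3% of all genes. The median of the hosts was below 0 under every scaling tried, and ranged from -0.95 to -0.49 with 1 replicate left out (all genes from -0.20 to 0.06).

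Other messages known for a TOP tract went both ways. Of 22 such genes tested, 1 was called higher and 3 lower by edgeR, beside 6.85% and 8.00% of all genes, and the median was 0.08. DESeq2 called 3 higher and 5 lower, beside 2011 and 2267 of all 16406 genes. The median of this list ranged from 0.004 to 0.085 with 1 replicate left out (all genes from -0.20 to 0.06). EIF3K, a subunit of the initiation factor eIF3, had 151 and 226 TPM in A549 and 497 and 568 TPM in A549/DDP, with an adjusted p of 0.00917. EIF3A, the largest subunit of the same factor, had 797 TPM in both A549 libraries and 385 and 427 TPM in A549/DDP, with an adjusted p of 0.0128, so subunits of eIF3 were called in opposite directions. NAP1L1, a histone chaperone, and PABPC1, the poly(A)-binding protein, were the other called genes, with log2 fold changes of -1.21 and -0.64. EEF1A1, the elongation factor that delivers tRNA, was the next highest after EIF3K, with a log2 fold change of 0.45 and an adjusted p of 0.0633.

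A list of 16 genes was taken around the control of TOP messages and ribosome production, and it also held MDM2 and MDM4. Of these 15 were tested, and 1 was called higher and 4 lower by edgeR, beside 6.85% and 8.00% of all genes. DESeq2 called 2 higher and 5 lower, beside 2011 and 2267 of all 16406 genes. The median of the list by edgeR was -0.14, and it ranged from -0.32 to -0.09 with 1 replicate left out (all genes from -0.20 to 0.06). MYC, the transcription factor that drives ribosome production, had 608 and 428 TPM in A549 and 138 and 114 TPM in A549/DDP, a log2 fold change of -2.07 with an adjusted p of 0.00800. MDM4, a relative and partner of the ubiquitin ligase MDM2, had 40.4 and 36.1 TPM against 4.18 and 2.35 TPM, with an adjusted p of 0.0369. RPS6KB1, the kinase of RPS6, and LARP4, a poly(A)- and mRNA-stability factor, were also called lower, with log2 fold changes of -1.21 and -0.99. EIF4EBP2, a repressor of cap-dependent initiation below mTOR, was called higher at 6.73 and 6.22 TPM in A549 and 20.8 and 19.4 TPM in A549/DDP. MTOR itself had 30.6 and 22.2 TPM in A549 and 33.9 and 36.9 TPM in A549/DDP, with a log2 fold change of 0.60 and an adjusted p of 0.0708. FAU, whose product is cut to release a small-subunit protein, and RPL36AL, a close copy of RPL36A, are cytosolic ribosome genes with symbols outside the rule. Neither passed the test, with log2 fold changes of 0.28 for FAU and -0.42 for RPL36AL.

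Called m6A peaks lay on more members in the A549/DDP lists than in the A549 lists. The lists of the authors give called peaks for each m6A-seq library, with no read count, so the strength of a peak could not be compared. They held 26320 and 14576 peaks in A549 replicates 1 and 2 and 27244 and 10661 peaks in A549/DDP replicates 1 and 2. Members with at least 1 peak numbered 34 and 40 in the A549 lists (41.5% and 48.8% of the tested members, beside 43.8% and 30.6% of all tested genes). They numbered 46 and 49 in the A549/DDP lists (56.1% and 59.8%, beside 40.7% and 22.2%). Among genes with a mean of at least 100 TPM the shares were 52.5% and 47.4% in the A549 lists and 70.6% and 50.4% in the A549/DDP lists. The members lay below these abundant genes in both replicate 1 lists and above them in both replicate 2 lists. Peaks on members made up 0.300% and 0.645% of the A549 lists and 0.503% and 1.20% of the A549/DDP lists. A peak in both lists of a line was found for 28 members in A549 (34.1%, beside 27.1% of all tested genes) and for 35 members in A549/DDP (42.7%, beside 19.5%). Among the 1933 genes with a mean of at least 100 TPM, the shares in both lists were 39.8% in A549 and 44.2% in A549/DDP, near those of the members. The part of RNA level in the peak calls was not tested. Restricted to peaks with a p at or below 1e-05, the counts of members were 12 in A549 and 10 in A549/DDP, so the order of the lines turned. With lists of equal size the counts of the lines were close to each other, as given below. The shares of all genes under these settings were not taken. The part of list size was not tested.

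Of the 84 members, 66 had a peak in at least 1 list, 20 had a peak in all 4 lists and 18 had none. Of the 82 tested members, a peak in at least 1 list was found for 80.5%, beside 57.1% of all tested genes and 82.6% of the genes with a mean of at least 100 TPM. A peak in all 4 lists was found for 24.4%, beside 13.9% and 29.2%. The members without any peak included abundant ones such as RPL3, RPS3, RPS7, RPL9 and RPLP1, and also RPS20 and RPS27L. The 16 tested members without a peak had a median level of 1204 TPM, and the 20 members with a peak in all lists a median of 1586 TPM. Merged across lists, the 438 peaks on members formed 220 regions, of which 23 on 17 members were shared by all 4 lists and 115 came from 1 list only. Peaks lay along the whole gene, but least in its middle: with the annotated start at 0% and the end of the gene, introns included, at 100%, the median peak centre was at 39.2% and 46.2% in the A549 lists and at 54.8% and 49.6% in the A549/DDP lists. With the gene cut into equal parts (first, middle, last), the A549 lists held 36, 13, 30 and 41, 18, 35 peaks. The A549/DDP lists held 47, 36, 54 and 48, 37, 43 peaks.

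RPL10A, a large-subunit protein at the L1 stalk, had the smallest deposited p of the members, listed as 0 in A549 replicate 1. It had 3 and 2 peaks in A549 and 3 in each A549/DDP list, and a region near its start, chr6:35468456-35468553 on the plus strand (hg38), was called at the same ends in all 4 lists. RPL39L, the lowest tested member by level, had 1 peak in each list with p between 1.3e-07 and 6.6e-07. Its peaks joined exon blocks within chr3:187121092-187139442 on the minus strand (hg38), spliced in 3 of the lists and in a single block in A549/DDP replicate 2. RPL13, RPL19, RPL21, RPL36, RPS15, RPS18 and RPS19 also had peaks in all 4 lists, as did RPL8, RPL13A and RPS10, with 1 to 5 peaks per list. RPL41 had 2 peaks in each of the 4 lists.

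Some members had peaks in both lists of 1 line and in neither of the other. In A549/DDP alone these were 6, namely RPL5, RPL6, RPL10, RPL15, RPS27 and RPS3A, and in A549 alone they were 2, RPL24 and RPS14. The share in A549/DDP alone was 7.32% of the tested members, beside 1.98% of all tested genes and 6.57% of the genes with a mean of at least 100 TPM. The share in A549 alone was 2.44%, beside 4.63% and 2.07%, so both shares of the members were near those of abundant genes. RPL10 had 5 peaks in each A549/DDP list and none in the A549 lists, with regions shared by the A549/DDP lists at chrX:154400394-154400493, chrX:154400742-154400941 and chrX:154403071-154403270 on the plus strand (hg38). The last of these, and 1 further peak of A549/DDP replicate 2, lay past the RefSeq end of RPL10, and its input level was also higher in A549/DDP as given above. RPL5 had 2 peaks and 1 peak in the A549/DDP lists, sharing the region chr1:92837532-92841874 on the plus strand, while its input level was lower in both A549/DDP libraries. RPS14, a small-subunit protein of the platform, had 2 and 3 peaks in A549 and none in A549/DDP, and its TPM was 1258 and 984 in A549 and 1778 and 1832 in A549/DDP. RPLP0 had 0 and 1 peak in A549 and 1 and 4 peaks in A549/DDP. The part of RNA level in these differences was not tested, since the lists hold no counts.

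The second A549 pair held the ribosomal protein genes in another order than the first pair, with RPS21 and RPL26 far above the rest. The members held 2.49% and 2.64% of all TPM in the second pair, and 6.13% and 6.15% of the TPM outside mitochondrial genes, beside 11.3% and 9.95% in the first pair on that same basis. RPS21, a small-subunit protein on the solvent side, had 560 and 599 TPM in the first pair and 7176 and 7419 TPM in the second, moving from rank 69 and 60 among the members to rank 1. RPL26, a large-subunit protein near the exit of the peptide tunnel, had 2774 and 2345 TPM in the first pair and 3759 and 3789 TPM in the second, where it held rank 2. These genes rested on 964 and 1234 counts for RPS21 and on 1180 and 1428 counts for RPL26, and together held 43.9% and 42.5% of the TPM of the members in the second pair, beside 2.95% and 2.96% in the first. Without them the members held 3.44% and 3.53% of the TPM outside mitochondrial genes. RPL4 went the other way, from rank 1 to rank 46 and 51, and RPL3 from rank 12 and 13 to rank 73 and 77.

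Spearman's rho across the 82 members was 0.963 between the libraries of the second pair and between 0.447 and 0.480 across the A549 pairs. By edgeR, 49 of 82 members (59.8%) were called between the A549 pairs, beside 13.8% of the 14258 genes tested, and 60 had an unadjusted p under 0.05, beside 26.2%. Of these, 47 were higher in the second pair, beside 6.45% of all genes, and 2 were lower, RPL3 and RPL4, beside 7.39%. The log2 fold change was 6.89 ± 0.31 for RPS21 and 4.18 ± 0.28 for RPL26, with adjusted p of 6.3e-15 and 3.55e-11, and it was -1.83 for RPL3 and -0.75 for RPL4. RPL4 was close to the threshold, with an adjusted p of 0.0487 by edgeR, 0.0555 with scaling without members and mitochondrial genes, and 0.0736 to 0.391 with any 1 replicate left out, and RPL3 lost its call without replicate 2 of the second pair (0.0924). The direction of the list depended on the scale. The median over members was 1.23 on counts scaled by trimmed mean of M-values (all genes -0.65) and -2.71 by limma on log2(TPM + 1) (all genes -3.23). By that limma fit 80 members were called lower and only RPS21 and RPL26 higher, beside 12254 lower and 117 higher of all 13548 genes. In TPM, 80 members lay lower in both libraries of the second pair (97.6%, beside 96.0% of all genes) and 2 lay higher (beside 0.779%). RPS21, RPL26, RPL3 and RPL4 kept their direction on both scales but not their size, which by limma on log2(TPM + 1) was 3.65 for RPS21, 0.57 for RPL26, -5.98 for RPL3 and -5.53 for RPL4. The mean fragment length also differed: the median gap between the length and the effective length of the members was 109 and 126 bases in the first pair and 246 and 240 bases in the second. The labels name no condition that separates the pairs. The study's methods also describe an input library for RIP-seq made with an Illumina kit, and whether the second pair is that input is not given in the sources used here. The preparation, depth, the mitochondrial share, fragment length and the pair itself cannot be told apart.

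**Figure D3:**
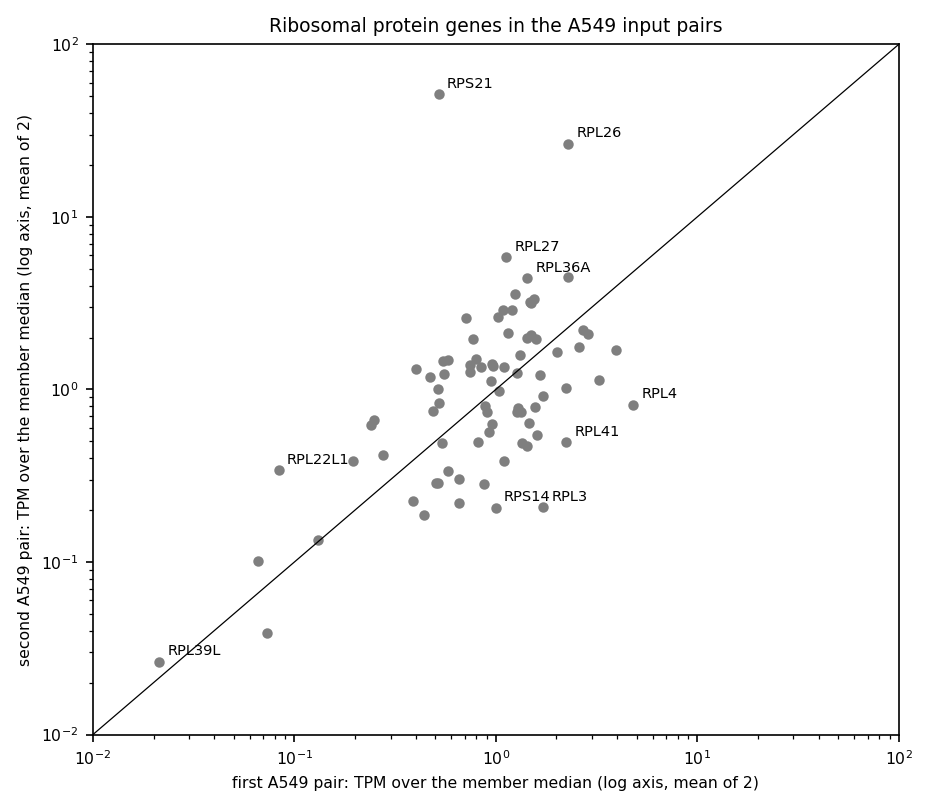
TPM of each tested member over the median TPM of the members in the same library, as the mean of 2 libraries on log axes, in the first A549 input pair (horizontal) and the second (vertical), with the line of equality and some members named. RPS21 and RPL26 lie far above the line, while RPL3, RPL4 and RPS14 lie below it.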

How the data were processed

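The study's methods describe poly(A) selection and strand-specific, paired-end libraries for m6A-seq and its inputs. They describe RIP-seq input libraries made with an Illumina kit, and the labels tie the second A549 pair to neither. STAR, RSEM and bedtools, with build hg38, are named in the submitters' processing notes without roles. For 6 input libraries the authors deposited expected counts (estimates, not normalized), TPM and FPKM per gene, and for 4 m6A-seq libraries peak lists called per library with a p-value for each peak. The peak caller is not given in the sources used here, nor is any adjustment of this deposited p-value. Depth sets precision: the median member had 11065 to 15684 counts in the first 4 inputs, and 87 and 120 in the second A549 pair.

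Of 58037 Ensembl identifiers 56948 were matched to a symbol. Expected counts were rounded and tested with edgeR 4.0.16 (R 4.3.3): filterByExpr, trimmed mean of M-values, quasi-likelihood test, Benjamini-Hochberg over all genes tested, called under 0.05. Alternatives used DESeq2 1.42.0, limma 3.58.1 on log2(TPM + 1) and on log2(FPKM + 1), other filters and scalings, and each replicate left out. The fitting was tested on simulated data. Peaks were joined to members by Ensembl identifier, and regions were merged where peaks overlapped. For the A549 m6A-seq libraries the titles and the deposited files number the replicates the opposite way, and the titles were followed. The members, the other gene lists and the rule for named genes (called members, the extremes of fold change and level, the L-suffix paralogues and parents, the stalk proteins, RPSA and RPS6, the leading peak genes, and the extremes of each other list) were chosen with earlier results of these data known. Other genes named (RPS14, RPS21, RPL3 and RPL4 in the A549 pairs, RPL22 counts, genes with peaks in 1 line) were chosen after their values were seen. A value of a further ribosome gene outside the rule is not reported here.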

Additional observations from a re-analysis of the deposited data

How the results depend on the processing

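The number of members called between the lines depended on the method: against 3, it was 13 (12 higher, 1 lower) with the replicate number as a block, 18 by DESeq2, 8 with upper-quartile scaling, 10 with no filter beyond 1 count, 14 with at least 10 counts in every library, 10 and 7 by limma on log2(TPM + 1) and log2(TPM + 0.1), 15 on log2(FPKM + 1), 56 (10 higher, 46 lower) with the second A549 pair in place of the first, 0 with both A549 pairs, and 0 to 36 with 1 replicate left out. The share of members called was below that of all genes with the block (3536 of 16406 called), DESeq2 (4278) and upper-quartile scaling (2535). It was below with no filter beyond 1 count (4010 of 22792), at least 10 counts (3614 of 12840) and both pairs (677 of 16517). It was above by limma on TPM (1492 and 1177 of 15398) and FPKM (1632 of 14369). With the second pair in place of the first it was also above (3758 of 13815). At an unadjusted p under 0.05, 19 members passed. Same-numbered libraries shared only a number: their deviations correlated at 0.03 over all genes and at 0.35 over the members, and the block left the median at 0.20. The median of 0.20 became -0.82 with the second pair in place of the first and -0.59 with both pairs. It ranged from 0.04 to 0.37 with 1 replicate left out. The value of 0.04 was without A549 replicate 2 and that of 0.37 without A549 replicate 1. The median of all genes was 0.06 in each of these fits. The upward shift of the members beside all genes thus depended on A549 replicate 2. A fit with 1 replicate left out has 1 library in a line, so its number of calls is not read for direction here. With the second pair in place of the first, RPS20 (-1.24), RPS28 (-1.55) and RPL7L1 (0.11) changed sign, and with both pairs RPS20 (-0.73) and RPS28 (-0.78) did. The cause was not tested. Between the A549 pairs, 49 calls became 82 on log2(TPM + 1), and ranged from 29 to 59 with 1 replicate left out. The median of 1.23 became -2.71 on log2(TPM + 1) and 0.81 with at least 10 counts in every library, and ranged from 1.18 to 1.48 with 1 replicate left out. Members with a peak in both lists numbered 28 in A549 and 35 in A549/DDP. They became 12 and 10 at a p at or below 1e-05, 11 and 12 with lists of equal size, and 46 and 60 with a peak in either list, and ranged from 34 to 40 in A549 and from 46 to 49 in A549/DDP with 1 list left out. The shares of all genes with the p limit, with lists of equal size and with a peak in either list were not taken. Whether these shifts are particular to the members is therefore not known. The share ratio of 1.20 kept its direction under the alternatives run, and scaling without members and mitochondrial genes, or adding pseudogenes, left 3 members called between the lines.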

Other observations

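The mitochondrial ribosomal proteins, encoded in the nucleus and built into a separate ribosome, did not share a direction between the lines. Of 78 tested, 4 were called higher and 3 lower in A549/DDP by edgeR with Benjamini-Hochberg adjustment, beside 6.85% and 8.00% of all genes, and their median log2 fold change was 0.03. DESeq2 called 7 higher and 5 lower, beside 2011 and 2267 of all 16406 genes. The median of the list ranged from -0.13 to 0.20 with 1 replicate left out (all genes from -0.20 to 0.06). MRPL17 had 36.6 and 48.0 TPM in A549 and 204 and 107 TPM in A549/DDP (log2 fold change 1.55, adjusted p 0.0102), and MRPL41 had 24.1 and 19.0 TPM against 71.4 and 56.1 TPM (log2 fold change 1.54, adjusted p 0.0288). MRPS31 had 50.2 and 32.3 TPM in A549 and 11.3 and 11.6 TPM in A549/DDP (log2 fold change -1.84, adjusted p 0.0273), and MRPL33 had 349 and 233 TPM against 74.5 and 117 TPM (log2 fold change -1.65, adjusted p 0.0323). The log2 fold changes of these 4 genes were larger in size than that of any cytosolic member.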
